A study of Mus musculus with 2 samples.

Results

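Iron storage and transport in the mouse hippocampus was followed through 10 genes, chosen by symbol from the 55536 annotated genes measured: the ferritin subunits Fth1 and Ftl1, transferrin (Trf), its receptor Tfrc, the transporters Slc11a2 and Slc40a1, the ferroxidases Cp and Heph, and the iron regulatory proteins Aco1 and Ireb2. All 10 symbols matched exactly 1 annotated gene. The RNA came from hippocampus tissue of female B6CASTF1/J mice, the first-generation hybrid of C57BL/6J and the wild-derived CAST/EiJ strain, aged 2 months, with no treatment stated in the labels. Total RNA with ribosomal RNA reduced was sequenced in 2 libraries, replicate 1 and replicate 2, from 300 ng of RNA each, and both belong to 1 group. The labels number them as biological replicates but list 1 donor record for both. Whether they came from separate mice is therefore not stated, and part of the difference between them may be technical. With no second condition, the data give the level of each gene, the form of its transcripts and the difference between the libraries.

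Cells take up iron bound to transferrin through the transferrin receptor, move it out of endosomes through the divalent metal transporter encoded by Slc11a2, and store the surplus inside ferritin, a hollow shell built of heavy and light subunits. Ferroportin, the product of Slc40a1, is the known exporter of iron from mammalian cells, and the multicopper ferroxidases ceruloplasmin and hephaestin oxidise the iron that leaves. The iron regulatory proteins bind a short RNA hairpin, the iron responsive element, when iron is scarce: in a 5′ UTR this blocks translation, and in a 3′ UTR, as in Tfrc, it protects the mRNA from decay. In brain, oligodendrocytes are known for high iron, ferritin and transferrin.

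The hairpins are shown first because the transcript forms described further on differ in whether they hold this element. The M21 transcript sequences were searched for the letters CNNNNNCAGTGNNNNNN, with the 5 bases before the loop required to pair with the 5 after it, G-U pairs allowed. The sense strand of each transcript was read, and 6 flanking bases are printed at each end. Coordinates and letters are of the mm10 build, the C57BL/6J reference, and the CAST/EiJ allele of these hybrids was not read. The capitals mark the 6-base loop. In the ferritin mRNAs and in Slc40a1 the element lay in the 5′ UTR, in exon 1 of the leading transcript.
Fth1, chr19:9982732-9982760, plus strand: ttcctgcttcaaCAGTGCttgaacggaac
Ftl1, chr7:45459779-45459807, minus strand: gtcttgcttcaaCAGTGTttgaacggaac
Slc40a1, chr1:45925465-45925493, minus strand: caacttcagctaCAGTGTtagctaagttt
In Tfrc, 4 elements lay in the 3′ UTR, all in exon 19, the last exon of Tfrc-201 on the plus strand of chromosome 16.
Tfrc, chr16:32631219-32631247: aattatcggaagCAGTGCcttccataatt
Tfrc, chr16:32631598-32631626: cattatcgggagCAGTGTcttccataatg
Tfrc, chr16:32631663-32631691: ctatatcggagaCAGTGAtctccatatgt
Tfrc, chr16:32631710-32631738: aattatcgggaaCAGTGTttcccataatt
Slc11a2 had no match with all 5 bases paired. When 1 base on the 3′ side was allowed to stay unpaired, a match appeared in the 3′ UTR of Slc11a2-205, in exon 16.
Slc11a2, chr15:100395152-100395181, minus strand: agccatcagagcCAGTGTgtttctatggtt
The fully paired letters occurred in a 5′ UTR of 31 of 20597 genes (0.151%) and in a 3′ UTR of 129 of 20979 genes (0.615%). With 1 unpaired base allowed, 103 genes had it in a 5′ UTR and 415 genes (1.98%) in a 3′ UTR. The relaxed letters also matched in the non-coding transcript Slc40a1-204, at chr1:45919013-45919042. A match describes the letters only, and no binding was measured.

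Heavy-chain ferritin was by far the most abundant of the 10 mRNAs. Fth1, which encodes the subunit with ferroxidase activity (chromosome 19, 9980598 to 9985098, plus strand), had 1272 TPM in replicate 1 and 1332 TPM in replicate 2, a mean of 1302 ± 42.3 TPM (SD, n = 2, as for all means here). TPM is the authors' abundance per transcript length, scaled to the same total in every library, so levels of different genes can be set side by side. Fth1 ranked 2 among 22015 nuclear protein-coding genes, and 4 among 21938 in the authors' second quantification. In the gene tables it held 83.8 ± 0.41% of the TPM summed over the 10 genes. It rested on 22863 and 24737 expected counts. Ftl1, the light subunit that favours mineral formation inside the shell (chromosome 7, 45457944 to 45459884, minus strand), had 74.7 and 79.6 TPM on 1397 and 1527 counts. Within each library Fth1 exceeded Ftl1, by 4.09 on the log2 scale in replicate 1 and 4.06 in replicate 2. The mean of 4.08 ± 0.02, a 16.9-fold ratio, was larger than 3 times the spread between libraries.

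**Figure D1:**
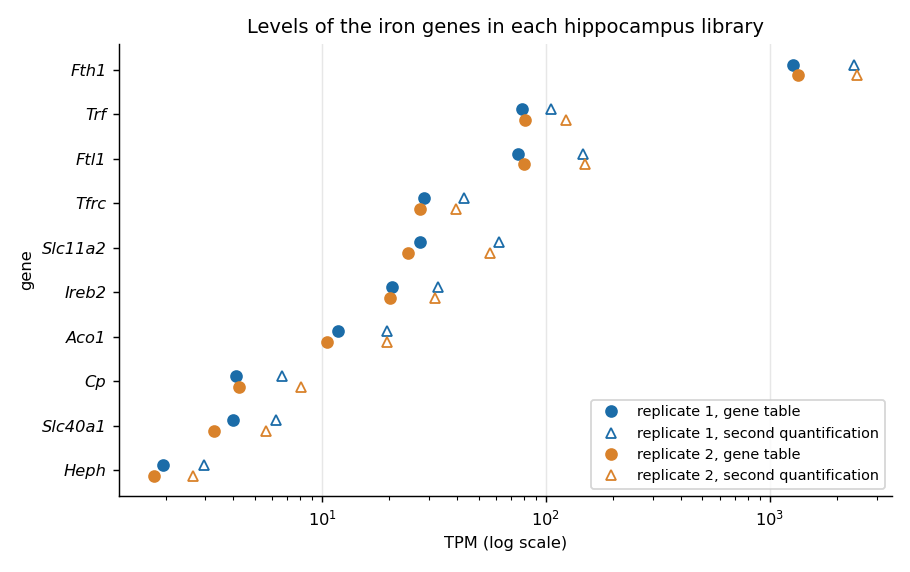
Level of each gene in TPM on a log axis, with filled circles for the gene tables and open triangles for the second quantification, blue for replicate 1 and orange for replicate 2. Fth1 stands at 1272 and 1332 TPM, an order of magnitude above Trf and Ftl1, and Heph is lowest at 1.94 and 1.78 TPM.

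The size of the heavy to light ratio depended on where light-chain reads were placed. Ftl1-ps1, on chromosome 13 from 74399694 to 74407346, is annotated as protein-coding, and its name marks it as a pseudogene copy. Its transcript matched the mRNA Ftl1-201 at 99.56% identity over 910 of 968 bases and also held the letters of the iron responsive element. This copy was given 1136 and 1164 counts, or 62.4 and 61.4 TPM, close to the level of Ftl1 itself. The second quantification placed the copy above Ftl1 in TPM, at 200 and 206 against 147 and 150. By counts it placed the copy below Ftl1, at 966 and 1020 against 1313 and 1395. Of the copy's TPM there, 135 and 139 were on the 491-base transcript Ftl1-ps1-201, on 355 and 370 counts. Over Ftl1 and its 16 sequence copies, of which 9 had a count in either library, Ftl1 took 54.2 ± 1.05% of counts and Ftl1-ps1 took 42.7 ± 1.13%. Of the 869 windows of 100 bases in Ftl1-201, the read length implied by the tables, 60.4% also occurred in another gene, and 515 of them in Ftl1-ps1. Reads from those windows cannot be assigned by sequence, so the levels of Ftl1 and Ftl1-ps1 are each uncertain. Whether reads of the CAST/EiJ allele were placed differently was not tested. The heavy subunit had no such problem: 0.964% of the windows of Fth1-201 were shared, and 1 of its 2 sequence copies, Gm6977, held 13.9 and 15.9 counts.

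With the copies of each subunit added, the heavy to light ratio was 8.83-fold (log2 3.14 ± 0.02), and 8.94-fold (3.16 ± 0.02) when copies were taken by symbol. In the second quantification the same sum over sequence copies gave 6.80-fold (2.77 ± 0.01). Heavy-chain ferritin was above light-chain ferritin in both libraries under each of these sums. The remaining ferritin-named loci with counts were minor. Ftl2-ps had 61.7 and 71.0 counts, Fth-ps2 had 33 and 23, and Ftl1-ps2 had 6.11 and 1.54.

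**Figure D2:**
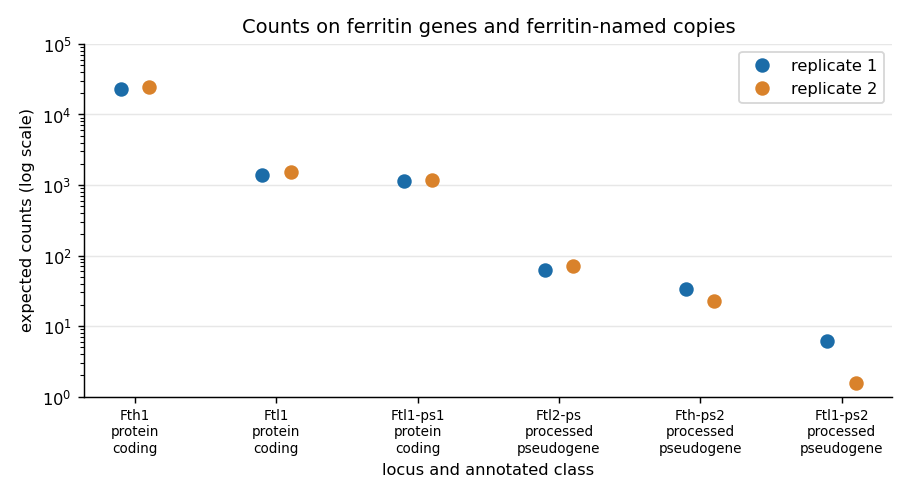
Expected counts, on a log axis, of the ferritin genes and of every locus with a ferritin symbol and a count, with blue for replicate 1 and orange for replicate 2. Ftl1-ps1, at 1136 and 1164 counts, lies beside Ftl1, at 1397 and 1527, and the other copies lie under 100 counts.

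Transferrin, the iron carrier that oligodendrocytes make in rodent brain, was next in the order. Trf (chromosome 9, 103204001 to 103230444, minus strand) had 78.2 and 81.0 TPM, a mean of 79.6 ± 1.93, on 2620 and 2825 counts. It did not differ from Ftl1 beyond the spread (log2 Trf over Ftl1 0.05 ± 0.03), but was past it with the posterior mean TPM (0.09 ± 0.03) and, in the opposite direction, with protein-coding transcripts alone (-0.68 ± 0.01). An overlapping read-through gene, Gm20425, spans Trf on the same strand and shared 77.3% of the 100-base windows of Trf-201. It was given 252 and 293 counts, or 3.96 and 4.43 TPM, so little of the signal was placed there. Reads from the shared windows cannot be assigned by sequence, so the split between Trf and Gm20425, and with it the level of Trf, is uncertain. No window of the leading transcripts of the other 7 genes was shared with another gene.

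The transferrin receptor Tfrc, which brings the loaded carrier into the cell (chromosome 16, 32608920 to 32632794, plus strand), had 28.7 and 27.5 TPM on 2109 and 2174 counts. Slc11a2 (chromosome 15, 100387898 to 100425072, minus strand), whose protein moves ferrous iron across the endosomal membrane, had 27.5 and 24.2 TPM on 1114 and 1122 counts. The pair did not differ beyond the spread in the gene tables (log2 Tfrc over Slc11a2 0.12 ± 0.09). They did in the second quantification, in the opposite direction (-0.52 ± 0.01), and with protein-coding transcripts alone (0.23 ± 0.01). Ireb2 and Aco1 followed. Ireb2 encodes iron regulatory protein 2, which is degraded when iron is plentiful (chromosome 9, 54863789 to 54912530, plus strand), and had 20.5 and 20.2 TPM on 2434 and 2556 counts. Aco1 encodes a protein that is a cytosolic aconitase with an iron-sulfur cluster and an RNA-binding regulator without it (chromosome 4, 40143081 to 40198338, plus strand), and had 11.8 and 10.5 TPM on 853 and 803 counts. Aco1 was lower than Ireb2 in both libraries, with a log2 ratio of -0.87 ± 0.10, or 0.548-fold.

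The genes of iron export were the lowest of the set. Cp, encoding ceruloplasmin (chromosome 3, 19957054 to 20009145, plus strand), had 4.12 and 4.27 TPM on 249 and 331 counts. Slc40a1, encoding ferroportin (chromosome 1, 45908068 to 45926523, minus strand), had 3.98 and 3.30 TPM on 247 and 235 counts. Heph, encoding the membrane-bound ferroxidase hephaestin (chromosome X, 96455359 to 96574485, plus strand), had 1.94 and 1.78 TPM on 188 and 180 counts. Cp and Slc40a1 did not differ beyond the spread (log2 0.21 ± 0.23). The importer Tfrc exceeded the exporter Slc40a1 by 2.95 ± 0.15 on the log2 scale, a 7.74-fold ratio. Cp exceeded Heph by 1.17 ± 0.12, a 2.26-fold ratio, larger than the spread. With protein-coding transcripts alone the ratio was 0.54 ± 0.33, which did not exceed 3 times the spread. These low levels are also the least certain. The authors' own interval for Slc40a1 in replicate 2 ran from 3.54 to 6.58 TPM, above the TPM printed beside it, and that for Cp in replicate 1 ran from 4.36 to 6.88.

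Of the 9 steps between neighbours in the order Fth1, Trf, Ftl1, Tfrc, Slc11a2, Ireb2, Aco1, Cp, Slc40a1 and Heph, 6 were larger than 3 times the spread between libraries. The 3 that were not were those from Trf to Ftl1, from Tfrc to Slc11a2 and from Cp to Slc40a1. The second quantification gave higher TPM to every one of the 10 genes, for example 2381 and 2460 for Fth1 and 61.8 and 56.5 for Slc11a2. It placed Ftl1 above Trf and Slc11a2 above Tfrc, and left the other positions as they were. With protein-coding transcripts alone the step from Slc11a2 to Ireb2 was no longer larger than the spread (-0.01 ± 0.01).

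By the gene's TPM in the authors' first transcript tables, the ferritin, ferroportin and regulator mRNAs were each led by 1 transcript with most of the signal, whereas Slc11a2 and Cp were spread over several. Fth1-201 held 97.0 ± 0.83% of the gene's TPM and Ftl1-201 held 93.4 ± 2.67%. Ireb2-201 held 94.2 ± 2.78%, Aco1-201 held 88.2 ± 1.04%, Heph-203 held 89.6 ± 5.13% and Slc40a1-201 held 80.1 ± 4.09%. For Heph-203 the second quantification gave 59.8% in replicate 1 and 44.6% in replicate 2, with Heph-201 at 30.2% and 48.7%. In Aco1 the non-coding Aco1-202 held 6.31 ± 3.56%. The leading transcript was the same in both libraries for all 10 genes. In the second quantification 7 of them had that lead in both libraries. Slc11a2-202 led there in both, Cp-202 led in replicate 1 and Heph-201 led in replicate 2.

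Most of the TPM of the ferritin genes and of Slc40a1 was on transcripts that held the iron responsive element. Transcripts with the fully paired letters made up 97.2 ± 0.80% of TPM for Fth1, 93.4 ± 2.67% for Ftl1 and 90.4 ± 5.88% for Slc40a1. The non-coding Slc40a1-204, which has only the relaxed letters, was not counted among them (4.62 ± 1.21%). A relaxed match was counted as the element for Slc11a2 alone. The annotation of Slc40a1 has a further start upstream, and the coding transcripts Slc40a1-203, Slc40a1-205 and Slc40a1-206 begin there and lack the element. No count was placed on these in either library, and the second quantification gave each 0 TPM. The split of reads among overlapping transcripts is an estimate, so a count of 0 here sets no upper limit. Of the rest of Slc40a1, the largest shares were those of the retained-intron transcript Slc40a1-208, which keeps the element (6.91 ± 2.69%), and of the short Slc40a1-207 (5.01 ± 7.09%), which rested on 1.41 counts in replicate 1 and 0 in replicate 2.

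Tfrc and Slc11a2 were mixed. Tfrc-201, with all 4 elements printed above, held 60.9% of the gene's TPM in replicate 1 and 59.4% in replicate 2, and 86.0% and 81.2% of its counts. The shorter coding transcript Tfrc-202 ends upstream and has none. It held 15.9% and 22.2% of TPM, on 175 and 242 counts. The retained-intron transcript Tfrc-205, of 571 bases, held 15.2% and 9.25%. The libraries differed more for these minor forms than for Tfrc-201.

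Slc11a2 had 7 of its 8 annotated transcripts at 5% or more of TPM. Slc11a2-205, the long form with the relaxed match to the element in its last exon, led with 29.3% and 34.1% of TPM. It also led with 67.9% and 71.9% of counts. Slc11a2-201 splices past the element from within the same exon to a more distal last exon and held 10.7% and 10.4% of TPM. Between these complete forms, Slc11a2-205 exceeded Slc11a2-201 by 2.74-fold and 3.29-fold in TPM, and took 75.0 ± 2.46% of their sum. The other named transcripts were short, at 389 to 718 bases. Slc11a2-206, a retained-intron form, held 16.4 ± 2.69%, Slc11a2-207 held 14.4 ± 0.88%, Slc11a2-202 held 9.75 ± 2.73%, Slc11a2-204 held 8.97 ± 3.87% and Slc11a2-203 held 8.21 ± 0.17%. Slc11a2-207 rested on 23.9 counts in each library, since TPM divides by a short effective length. The second quantification gave Slc11a2-202 the lead, with 26.1% and 33.0%, and gave Slc11a2-205 23.4 ± 1.73%, while the ratio between the complete forms was 2.73-fold and 3.49-fold. Slc11a2-208, with 0 counts in the first transcript tables, had 25.2% and 19.4% there. Slc11a2-207 and Slc11a2-204 had 0% there in both libraries, so the shares of the short forms depended on the quantification.

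By TPM in the first transcript tables, Trf and Cp had the largest retained-intron shares, at 43.2 ± 0.46% and 36.1 ± 10.5%. By counts Cp led, and Slc40a1, at 10.5% and 13.3%, exceeded Trf, at 9.42% and 9.58%. The coding Trf-201 held 56.0 ± 0.41% of TPM, and Trf-209, a retained-intron transcript of 433 bases near the 3′ end, held 42.4 ± 0.40%. The second quantification gave Trf-209 13.6% and 18.5%. By counts Trf-209 was 9.19 ± 0.08% and Trf-201 was 89.8 ± 0.69%. Coding transcripts of Trf alone reached 44.1 and 45.8 TPM, which put Trf below Ftl1. In Cp the lead was Cp-201 at 27.0% and 37.4% of TPM. Cp-202 held 19.5% and 23.4%, and Cp-204 held 9.49% and 10.5%. These coding forms share their 18 upstream exons apart from small boundary differences and differ in their last exon. The retained-intron transcripts Cp-208, Cp-211 and Cp-207 held 12.8 ± 6.60%, 7.81 ± 3.82% and 7.70 ± 3.32%, on at most 30.8 counts each.

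**Figure D3:**
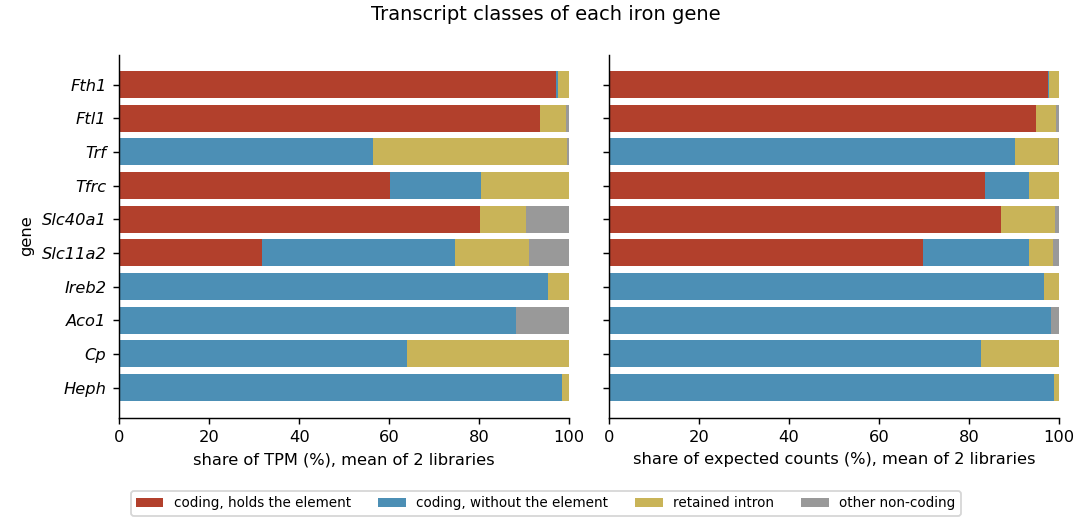
Mean share of each gene's TPM (left) and of its expected counts (right) over 4 transcript classes: coding with an iron responsive element (red), coding without it (blue), retained intron (yellow) and other non-coding (grey). The grey class also holds transcripts annotated for nonsense-mediated decay, such as Slc11a2-204. Retained-intron transcripts take 43.2% of the TPM of Trf, against a narrow band by counts, and 5 genes have a coding class with the element.

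No gene of the 10 stood apart between the libraries. Counts were scaled to library size with TMM factors, and the ratio of replicate 1 over replicate 2 had to reach a size of 1 on the log2 scale to count as apart. Of the 15509 genes tested, 80 did so (0.516%), so a count of 0 among 10 is near the background. The median log2 ratio was 0.00 for the 10 genes and 0.00 for all genes tested, with 5 genes higher in each replicate. As 1 library was set against 1 library, no p-value was computed.

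Counting error alone left 3 of the 10 ratios away from equality, where 18.7% of all genes tested did so. Cp had the largest, a log2 ratio of -0.35 with a 95% counting interval from -0.59 to -0.11, lower in replicate 1. Its TPM nonetheless lay close together because the authors' effective length was 2784 bases in replicate 1 and 3426 in replicate 2. Coding transcripts, the longer ones, held 56.4% of its TPM in replicate 1 and 71.3% in replicate 2. Aco1 was higher in replicate 1 (0.15, from 0.01 to 0.29) and Fth1 lower (-0.05, from -0.08 to -0.03). Fth1 was also the only one of the 10 whose TPM intervals from the authors did not overlap (1222 to 1261 in replicate 1, 1274 to 1320 in replicate 2), where 4.38% of all genes tested were separate. Its TPM of 1272 and 1332 lay above those intervals, which centre on the posterior means of 1241 and 1296. The authors' TPM intervals were each computed within 1 library, and the counting intervals allow for counting error alone. Neither kind measures variation between libraries.

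**Figure D4:**
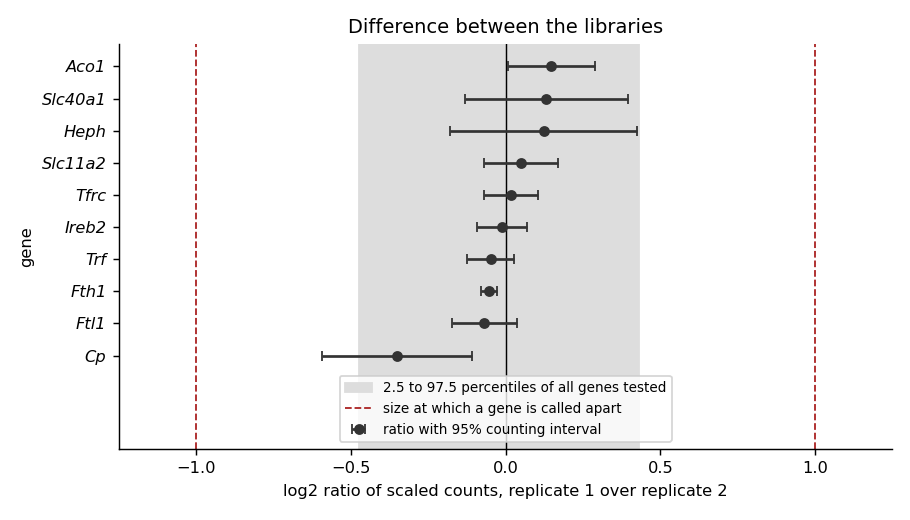
Log2 ratio of scaled counts, replicate 1 over replicate 2, for each gene, with bars for the 95% counting interval. All 10 ratios lie inside the dashed lines at 1 in size and inside the grey band that spans the middle 95% of all genes tested (-0.47 to 0.43), and Cp lies farthest from equality at -0.35.

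Annotated genes held 29490900 counts in replicate 1 and 30691917 in replicate 2, and the biological coefficient of variation between the libraries was 4.86% over 17782 genes. All 6 hippocampal field markers were detected at 1 TPM or more in both, led by Neurod6, Wfs1 and Rgs14, as were 6 of 6 neuronal markers, led by Snap25, Slc17a7 and Map2. The tissue also held other cells. Markers of mature oligodendrocytes, 6 of 6 detected and led by Mbp, Mobp and Cnp, summed to 690 and 754 TPM. By scaled counts all 6 were higher in replicate 2, though Mag was near equality (log2 -0.01), with 56.85 and 56.46 TPM. Those of astrocytes, 6 of 6 and led by Slc1a2, Aldoc and Slc1a3, summed to 1416 and 1478 TPM, of microglia (Csf1r, C1qb, C1qa; 6 of 6) to 107 and 103, and of endothelial cells (Slc2a1, Ly6c1, Cldn5; 6 of 6) to 104 and 116. Leptomeningeal markers (Igf2, Dcn, Col1a2; 5 of 5) summed to 63.0 and 57.0 TPM, and ependymal ones (Rarres2, Foxj1, Ccdc153; 3 of 4, with Tmem212 under 1 TPM in both) to 9.43 and 11.02.

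Of these lists, markers of blood and of choroid plexus had the largest median ratios between the libraries (log2 -0.80 and 0.35). The 5 erythroid genes, led by Hbb-bs, Hba-a1 and Hba-a2, summed to 340 TPM in replicate 1 and 606 TPM in replicate 2, and all 5 were higher in replicate 2. By scaled counts Cp, Fth1, Ftl1, Trf and Ireb2 were also higher there. The other 5 of the 10 genes were higher in replicate 1. Of the choroid plexus genes, led by Ttr, Kl and Sostdc1, 4 of 8 were detected, with Otx2 and Kcne2 under 1 TPM in both. The 8 genes summed to 132 and 75.5 TPM, of which Ttr alone held 120.94 and 65.68. The drop in that sum was therefore mostly that of Ttr. By scaled counts the 5 choroid plexus genes with a ratio were all higher in replicate 1, opposite to Cp. Among them Sostdc1 was near equality (log2 0.02), and Prlr was lower in replicate 1 by TPM. No marker of either list was at 0. Their part in the differences of Cp and Fth1 was not tested, and in bulk tissue fewer cells of a type and less RNA per cell cannot be told apart.

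Around the 10 genes, the wider machinery of iron handling was broadly present. Of 62 further genes on 7 lists, 49 were at 1 TPM or more in both libraries, and of the 50 with a ratio none was apart in either direction, against the background of 0.516%. Their median log2 ratio was -0.02 and the largest in size was 0.71, of Alas2. Regulators of storage were well represented. The iron chaperones that deliver iron to ferritin led, Pcbp2 at 194 ± 4.89 TPM and Pcbp1 at 69.9 ± 0.10, followed by Herc2, a ubiquitin ligase, at 56.7 ± 0.40. Mitochondrial ferritin, Ftmt, had 0 counts in each library, with up to 3 allowed.

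Among genes of uptake and reduction, 8 of 12 were detected, with Lrp1, a receptor that clears haemopexin-bound heme, at 124 ± 3.64 TPM, the sorting nexin Snx3 at 73.9 ± 0.52 and the metal importer Slc39a14 at 17.8 ± 2.28. On the same list, Scara5, Steap1, Meltf and Steap4 were under 1 TPM in both, between 0.06 and 0.22 TPM. Of the hepcidin axis, receptors and signalling genes were detected and the hormone was not. Bmpr2, Neo1 and Smad5 led with 36.1 ± 0.62, 31.1 ± 0.39 and 10.4 ± 0.76 TPM. Hamp, which encodes the hormone hepcidin that triggers ferroportin degradation, had 0 counts in both libraries, with up to 3 allowed. Hamp2 had 0 and 1, and Hfe2, the gene of hemojuvelin, had 8 and 4.

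All 10 genes of mitochondrial iron and iron-sulfur clusters were detected, led by the scaffold Iscu at 47.0 ± 4.90 TPM, Ciao1 at 29.1 ± 0.93 and Glrx5 at 18.2 ± 0.24. For heme, 12 of 15 were detected. Alas1, the rate-limiting enzyme of heme synthesis outside red cells, had 56.7 ± 4.65 TPM, the heme transporter Slc48a1 had 51.9 ± 1.07, and the constitutive heme oxygenase Hmox2 had 35.3 ± 0.89. The plasma scavengers Hpx and Hp were under 1 TPM in both, with 8 and 3 counts for Hpx and 0 and 1 for Hp.

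Other mRNAs reported to carry an iron responsive element were led by Cdc42bpa at 95.6 ± 1.20 TPM, the hypoxia factor Epas1 at 39.0 ± 0.38 and Alas2, the erythroid enzyme of heme synthesis, at 2.15 ± 0.47. The fully paired letters were found in the 5′ UTR of Alas2, and the form with 1 unpaired base in that of Epas1. They were not found in the transcripts of Cdc42bpa or Cdc14a. Among copper genes, on which both ferroxidases depend, the chaperone Atox1 led with 34.9 ± 0.49 TPM, followed by the importer Slc31a1 at 4.64 ± 0.03 and the copper pump Atp7a at 2.78 ± 0.08. Its relative Atp7b was at 0.89 and 0.91 TPM, and Hephl1, a relative of hephaestin, had 0 counts in both libraries.

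**Figure D5:**
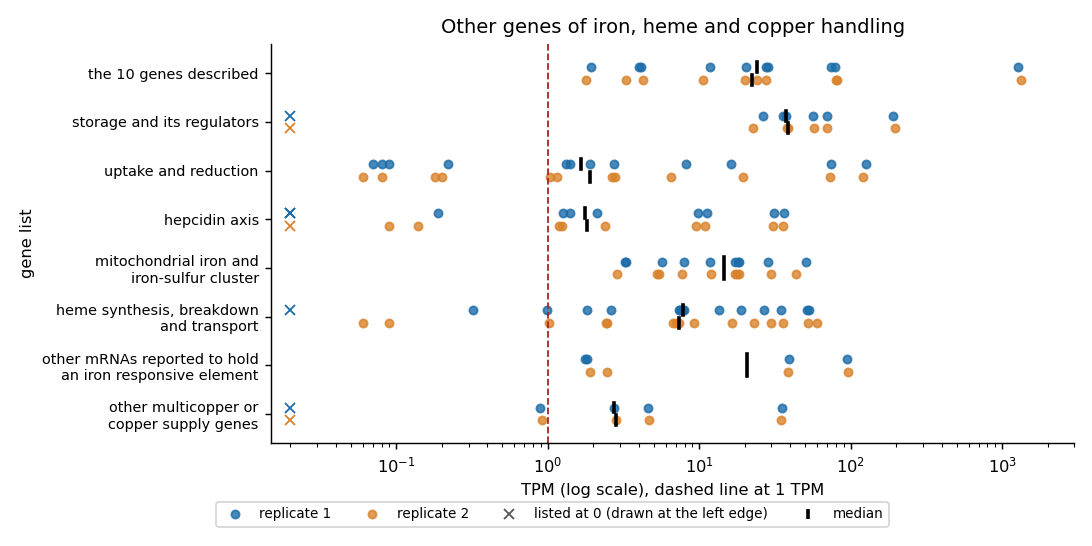
Level of each gene in TPM on a log axis, by list, with blue for replicate 1, orange for replicate 2, crosses for genes listed at 0 and black marks for medians. The storage list centres on 37.4 and 38.7 TPM, while the uptake list and the hepcidin list centre just above the dashed line at 1 TPM.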

How the data were processed

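The deposited gene and transcript tables of a library have the columns of RSEM. Per the file headers, these give the expected count, TPM, a posterior mean TPM and, as a score, the bounds of a TPM interval. The authors' other transcript table is laid out as by kallisto, with estimated counts and TPM, and was summed per gene as the second quantification. The assembly is mm10 and the annotation M21, per the labels and notes. The software versions are not given in the sources used here, nor is whether counting used strand. On the opposite strand Ftl1 overlaps Gm10252, Slc11a2 overlaps Gm5475, Cp overlaps Hps3 and Heph overlaps Hsf3. Hps3 had 594 and 564 counts and the other 3 at most 4.02.

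Annotated genes alone entered library sizes. Other entries held 0.378% and 0.368% of counts. Expected counts were rounded for edgeR 4.0.16 (R 4.3.3), which gave TMM factors and a common dispersion over genes past a minimum of 10 counts. Ratios used counts with 0.5 added, for genes at a mean of 1 CPM or more, and their 95% intervals are exact binomial intervals of the counts. Pair ratios of TPM were taken library by library and called larger than the spread where the mean exceeded 3 SD. A gene was detected at 1 TPM in both libraries, and a gene's count of 0 was given an upper limit of 3 counts. Sequences came from the M21 transcripts, and ferritin copies are blastn 2.17.0 matches of at least 85% identity over 300 bases. Python 3.11.15 with pandas 2.3.3 was used. The dispersion estimate and the ratio calls were run on simulated counts. Levels, pair ratios, transcript shares and the sequence searches were not.

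The 10 genes and the lists were chosen with earlier results of these data known. Named beside them are transcripts with 5% or more of a gene's TPM, the 3 highest genes of each list, its genes under 1 TPM in both libraries and ferritin-named loci with a count. Gm6977, Gm20425 and the 3 upstream-start transcripts of Slc40a1 were named after their values were seen. Some further list members are not reported here and stay out of the counts and sums. Hjv was listed beside its older symbol Hfe2, and Hfe2 matched. The alternatives were DESeq2 1.42.0 size factors, other count minimums and pseudocounts, the posterior mean TPM, the second quantification, ferritin copies added and each replicate left out.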

Additional observations from a re-analysis of the deposited data

How the results depend on the processing

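No gene of the 10 was called apart between the libraries with DESeq2 size factors, no filter on low counts, a minimum of 5 CPM, 2 added to counts or the second quantification. The background share moved to 20.2% with no filter. Of the 10 places in the order of levels, 6 held in the second quantification and 4 with protein-coding transcripts alone, an alternative chosen after seeing the data, while all 10 held without either replicate. Log2 Fth1 over Ftl1 was 4.03 in the second quantification, 4.14 with coding transcripts alone, 3.16 with copies added by symbol and 3.14 with copies added by sequence, and 4.06 to 4.09 with a replicate left out. For Aco1 over Ireb2 the values were -0.74, -0.98 with coding transcripts alone, and -0.94 to -0.80. For Tfrc over Slc40a1 they were 2.80, 2.43 from the posterior mean, and 2.85 to 3.06. For Cp over Heph they were 1.38, 1.55 from the posterior mean, 0.54 with coding transcripts alone, and 1.09 to 1.26. None of these 4 ratios changed sign, and Cp over Heph with coding transcripts alone was the 1 that fell within 3 SD. Slc11a2-205 held 23.4% of its gene's TPM in the second quantification, 75.0% within the 2 longest coding transcripts, also chosen after seeing the data, and 29.3% to 34.1% with a replicate left out. The cause of these shifts was not tested, except that fewer transcripts or more loci enter where named. No paired analysis was possible because there is 1 group. With 2 libraries the SD of each value is itself uncertain, and the genes with the fewest counts, Cp, Slc40a1 and Heph, have the widest intervals.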
